A study of Mus musculus with 6 samples.

Results

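The liver's noncollagen matrix was followed through 10 genes, *Sparc*, *Lum*, *Dcn*, *Bgn*, *Fn1*, *Timp1*, *Timp2*, *Mmp14*, *Ccn2* and *Tgfbi*, out of 22851 genes in the deposited expression matrix. They were chosen by name, with earlier results of these data known, and each was found once in the matrix under its symbol. The RNA came from livers of male mice of the inbred strain C57BL/6J, and both groups ate a high-fat diet. Vehicle went to the mice of 3 libraries (numbered 1, 2 and 4). The other 3 libraries (numbered 1, 3 and 4) came from mice that received ONX-0914, an inhibitor selective for the immunoproteasome subunit PSMB8. It was injected under the skin on alternate days over 6 weeks, 10 mg/kg each time. The mice carried no engineered allele that the labels name, no age was used here, and livers of mice on a normal diet were not analysed here. The design text speaks of 2 animals per group, whereas 3 libraries per group are labelled, so each p-value reflects only how much the deposited libraries vary, which may be technical.

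The extracellular matrix of the liver holds, beside collagens, proteoglycans, glycoproteins and the enzymes that remodel them. Decorin, biglycan and lumican are small leucine-rich proteoglycans that bind collagen fibrils, and SPARC is a collagen-binding matricellular protein. Fibronectin is an adhesive glycoprotein that hepatocytes secrete into plasma and that cells also lay down as fibrils. MMP14 is a membrane-bound metalloproteinase, and TIMP1 and TIMP2 inhibit metalloproteinases. CCN2 (connective tissue growth factor) and TGFBI are secreted proteins whose genes respond to TGF-beta. In liver most of these genes are known from stellate cells, fibroblasts and endothelial cells, which make up a small part of the tissue's RNA.

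Values are as deposited and were taken from their range to be FPKM, a level corrected for transcript length and library size. Levels are set beside each other between genes with a limit: treated libraries differed from vehicle by transcript length, as given below. Ranks of genes of unlike length may depend on that in treated livers. Their sums ran from 993264 to 1074027 per vehicle library and from 1041391 to 1247789 per treated library. Total reads are unknown. Relative depth, read from low values with vehicle 1 set to 1, ranged from 0.867 (ONX-0914 3) to 1.29 (vehicle 2). Summed hepatocyte markers ran from 136448 to 147071 FPKM with vehicle and from 147231 to 184686 with ONX-0914, as the liver label implies. The library ONX-0914 3 stood apart, at 10.6 on the first principal component, where ONX-0914 1 and 4 were at 73.9 and 67.8 and vehicle libraries between -56.1 and -47.2. The median tested gene was also lower with treatment, at log2 differences of -0.74 (ONX-0914 1), -0.38 (ONX-0914 3) and -0.79 (ONX-0914 4). For this reason values are also given after a median-ratio scaling, in which each library is divided by its median ratio to the geometric mean of all libraries. Below, 3 values in a row follow the order vehicle 1, 2 and 4 or ONX-0914 1, 3 and 4.

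With ONX-0914, 8 of the 10 genes fell, none rose, and *Fn1* and *Timp1* did not pass the test. A gene counts as fallen or risen at a limma adjusted p under 0.05 over all 10743 genes tested, where 43.5% were lower and 2.56% higher. For the same 8 genes the 3 treated libraries all lay below the 3 vehicle libraries, as they did for 53.5% of tested genes, while 4.93% lay above without overlap. After median-ratio scaling, 6 of the 10 fell (*Sparc*, *Lum*, *Dcn*, *Bgn*, *Mmp14* and *Tgfbi*), where 14.2% of tested genes were lower and 13.8% higher, and 7 lay below without overlap, against 24.1% below and 23.9% above. The median log2 fold change of the 10 genes was -1.66 as deposited, beside -0.64 for all tested genes, and -0.91 after median-ratio scaling, beside -0.01. After quantile normalization 6 of the 10 fell, beside 12.4% of tested genes lower and 10.4% higher. Without ONX-0914 3 the count was 9, beside 60.6% lower and 6.89% higher, and with ONX-0914 3 as the only treated library it was 7, beside 27.9% lower and 2.88% higher. None of the 10 rose in any of these fits. Because the 10 were chosen with earlier results of these data known, their counts cannot be tested against these shares.

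**Figure D1:**
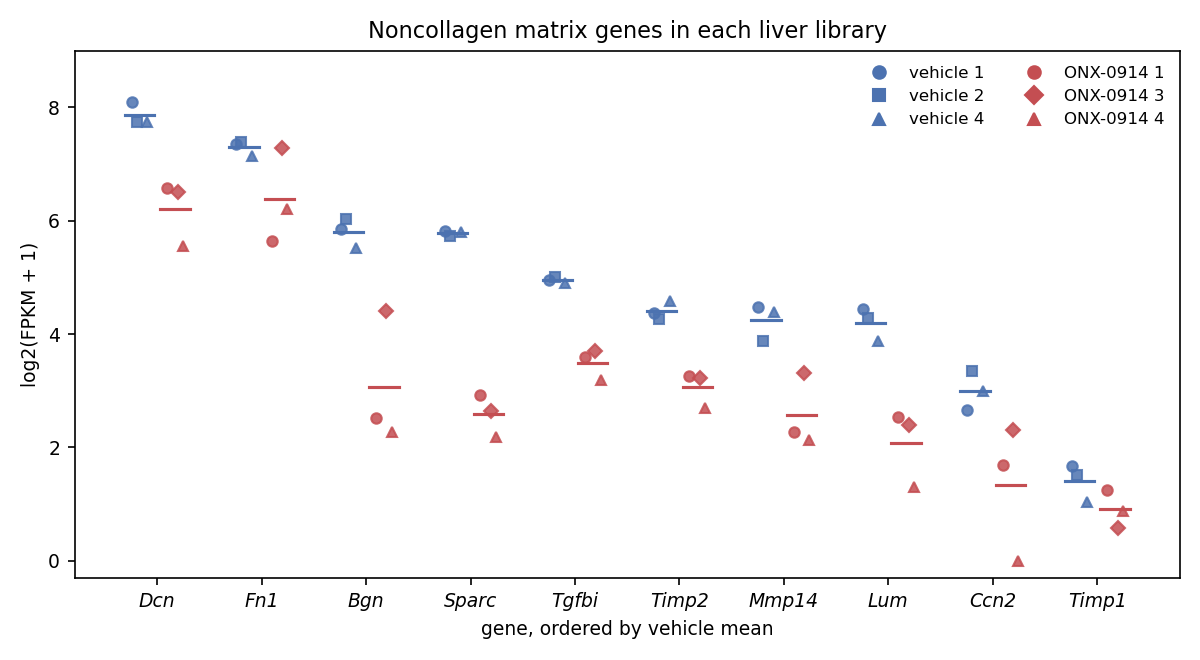
Each point is 1 library, with log2(FPKM + 1) on the vertical axis and the genes ordered by their vehicle mean; bars mark group means on that scale. Treated libraries lie below all vehicle libraries for 8 genes, and overlap them for *Fn1* and *Timp1*.

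In vehicle livers *Dcn* had the highest level of the 10 genes and *Timp1* the lowest. *Dcn* was followed by *Fn1*, *Bgn*, *Sparc*, *Tgfbi*, *Timp2*, *Mmp14*, *Lum* and *Ccn2*. *Bgn* and *Sparc* overlapped in their vehicle libraries, as did *Timp2*, *Mmp14* and *Lum*. In treated livers *Fn1* had the highest mean and *Dcn* the next, with overlapping libraries, and *Sparc* moved from place 4 to place 7.

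*Sparc* lies on chromosome 11, positions 55394500 to 55423183 (GRCm38, GENCODE M21, as for all positions of genes given here), and had the lowest log2 fold change of the 10 over the 6 libraries. Without ONX-0914 3 that of *Bgn* was lower (-3.41, against -3.23 for *Sparc*), and the ratio of *Bgn* to *Sparc* overlapped between the groups (exact permutation p = 0.8). *Sparc* measured 55.3, 52.3 and 54.9 FPKM across the vehicle livers and 6.64, 5.23 and 3.52 FPKM across the treated ones. All treated libraries were far below vehicle, and ONX-0914 3 lay between the other two. The group means were 54.1 ± 1.64 FPKM (SD, n = 3) and 5.13 ± 1.56 FPKM (n = 3), 10.6-fold lower with treatment. The log2 fold change on log2(FPKM + 1) was -3.20 (limma: SE 0.25, adjusted p = 0.000675), and only 0.223% of tested genes had a lower one. After median-ratio scaling it was -2.47 (limma adjusted p = 0.00361), and with ONX-0914 3 alone against vehicle -3.15 (limma adjusted p = 0.000636). Of 7 other matricellular genes tested 4 fell and none rose, and after median-ratio scaling 2 fell and 1, *Spp1* (osteopontin), rose. Over all tested genes 43.5% were lower, and 14.2% after median-ratio scaling. *Smoc2*, a relative of *Sparc*, went from 9.78 ± 1.602 to 1.77 ± 0.674 FPKM (n = 3 per group; log2 change -1.97).

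The proteoglycan genes *Dcn*, *Lum* and *Bgn* all fell. *Dcn* (chromosome 10, positions 97479609 to 97518143) measured 274, 213 and 214 FPKM across the vehicle livers and 94.3, 90.4 and 46.1 FPKM across the treated ones. The groups did not overlap, and ONX-0914 4 was the lowest library. The *Dcn* log2 fold change was -1.65 (limma: SE 0.29, adjusted p = 0.00323), and -0.85 after median-ratio scaling (limma adjusted p = 0.0478).

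*Lum*, its neighbour (chromosome 10, positions 97565128 to 97572703), encodes lumican. It measured 20.8, 18.4 and 13.6 FPKM across the vehicle livers and 4.82, 4.29 and 1.46 FPKM across the treated ones. Again ONX-0914 1 and 3 were alike and ONX-0914 4 was lowest. For *Lum* the log2 fold change was -2.12 (limma: SE 0.36, adjusted p = 0.00307), and -1.44 after median-ratio scaling (limma adjusted p = 0.0204).

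*Bgn*, the biglycan gene, lies on chromosome X, positions 73483602 to 73495933. It measured 57.1, 64.7 and 44.7 FPKM across the vehicle livers and 4.71, 20.2 and 3.86 FPKM across the treated ones. ONX-0914 3 kept 36.4% of the vehicle mean and ONX-0914 1 and 4 only 8.49% and 6.96%, so the treated libraries spread far more than for *Sparc*. The log2 fold change of *Bgn* was -2.74 (limma: SE 0.49, adjusted p = 0.00362) and -2.01 after median-ratio scaling (limma adjusted p = 0.0157). Against vehicle, ONX-0914 3 by itself gave -1.40 (limma adjusted p = 0.00609).

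Of 9 other small leucine-rich proteoglycan genes 5 had values high enough to be tested, and 4 of these fell. *Prelp*, which encodes a connective tissue proteoglycan, went from 13.3 ± 2.47 to 2.18 ± 0.690 FPKM (n = 3 per group; log2 change -2.17). *Ogn*, *Omd* and *Podn* also fell, and *Chad* had a log2 fold change of -0.53 (limma adjusted p = 0.166). After median-ratio scaling 3 of the 5 fell, *Ogn*, *Prelp* and *Omd*. The share of all tested genes that were lower was 43.5% as deposited and 14.2% when scaled.

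*Fn1*, the fibronectin gene, measured 163, 167 and 141 FPKM across the vehicle livers and 49.2, 155 and 72.5 FPKM across the treated ones. ONX-0914 3 was within the vehicle range, at 98.5% of the vehicle mean, while ONX-0914 1 and 4 were at 31.3% and 46.2%. Over the 6 libraries the log2 fold change was -0.92 (limma: SE 0.36, adjusted p = 0.061). Without ONX-0914 3 it passed the test, at -1.37 (limma adjusted p = 0.000618), and with ONX-0914 3 alone against vehicle it was -0.02 (limma adjusted p = 0.95). It was -0.13 after median-ratio scaling (limma adjusted p = 0.763). *Fn1* lies on chromosome 1, positions 71585520 to 71653200, and its exons overlap those of the antisense gene *Apol7d*; use of strand in counting is not stated, so reads of the 2 cannot be told apart. Its longest coding transcript, 8315 bases, is the longest of the 10 genes.

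Treated libraries differed from vehicle by transcript length. For transcripts above the upper quartile of length, relative to those below the lower quartile, the gap in median log2 difference was -0.95 in ONX-0914 1, -0.25 in ONX-0914 3 and -0.99 in ONX-0914 4. It lay between -0.03 and 0.04 in vehicle libraries. A smooth trend over length was then removed from each library, which also takes out the library's overall shift from vehicle. The median log2 fold change of all tested genes became 0.02. *Fn1* was then at -0.07 (limma adjusted p = 0.875), and it was at -0.13 after median-ratio scaling, which has no length term. The part of length in the other falls was not tested beyond this: with the trend removed 6 of the 10 fell, where 11.5% of tested genes were lower and 9.54% higher, and *Sparc* was at -2.60 and *Dcn* at -1.22. The 6 were *Sparc*, *Lum*, *Dcn*, *Bgn*, *Mmp14* and *Tgfbi*. Of the other matricellular genes 1 of 7 fell with the trend removed, and of the other small leucine-rich proteoglycan genes 3 of 5. *Vtn*, which encodes vitronectin, a plasma adhesion protein made by hepatocytes, rose from 2142 ± 161 to 3760 ± 386 FPKM (n = 3 per group; log2 change 0.81, limma adjusted p = 0.0103). The list of structural glycoproteins had 12 tested genes other than *Fn1*. *Vtn* was the one that rose, and 7 fell, among them *Fbln5* (-1.89), *Mmrn2* (-1.51) and *Dpt* (-1.22). *Mmrn2* and *Fbln5*, 2 of the 12, also fell after median-ratio scaling, where 14.2% of all tested genes were lower (43.5% as deposited). With the length trend removed 2 of the 12 fell, *Fbln5* among them, and *Mmrn2* was not called (-0.64, limma adjusted p = 0.104).

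**Figure D2:**
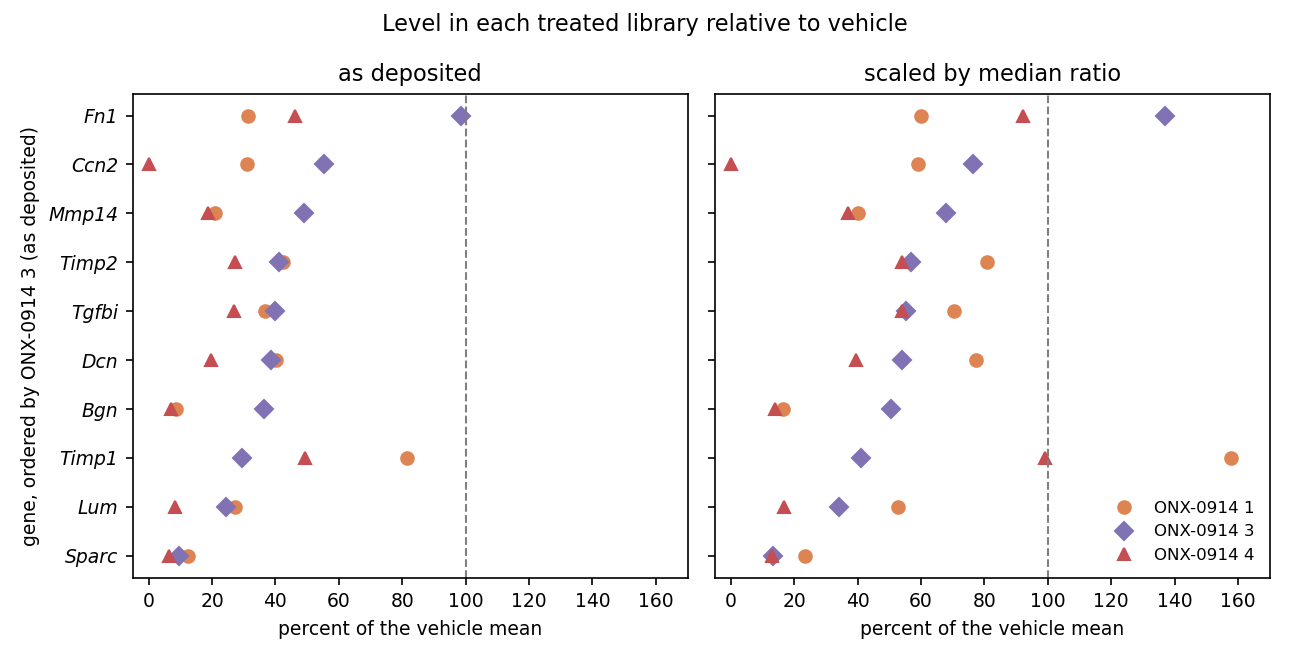
Level of each gene in each treated library as a percent of the vehicle mean (dashed line at 100), as deposited on the left and after median-ratio scaling on the right. *Sparc* is low in each of the 3 libraries, while *Fn1* in ONX-0914 3 is near 100 as deposited and above it when scaled.

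The RNAs of the secreted proteins tied to TGF-beta differed in how firmly they were measured. *Tgfbi* (chromosome 13, positions 56609523 to 56639562) measured 29.9, 31.2 and 29.0 FPKM across the vehicle livers and 11.1, 12.0 and 8.12 FPKM across the treated ones. The treated libraries were close to each other and well below vehicle. Its log2 fold change was -1.46 (limma: SE 0.23, adjusted p = 0.00237) and -0.71 after median-ratio scaling (limma adjusted p = 0.0342).

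*Ccn2* (chromosome 10, positions 24595442 to 24598683) measured 5.29, 9.15 and 7.02 FPKM across the vehicle livers, 2.22 FPKM in ONX-0914 1, 3.95 FPKM in ONX-0914 3, and was listed at 0 in ONX-0914 4. Its log2 fold change was -1.67 (limma: SE 0.52, adjusted p = 0.0279), and -1.17 after median-ratio scaling, where it did not pass (limma adjusted p = 0.141). The call was lost in 5 of the 6 fits that leave out 1 library: the limma adjusted p lay between 0.0504 (ONX-0914 1 left out) and 0.0851 (vehicle 2 left out). Its log2 fold change was -1.003 without ONX-0914 4, the library listed at 0, and between -1.85 and -1.50 in the other 4 of these fits. With ONX-0914 3 left out the log2 fold change was -2.16 (limma adjusted p = 0.00319). Exons of *Ccn2* overlap those of *Gm15270* on the other strand. *Ccn1*, another CCN gene, had a log2 fold change of -0.50 (limma adjusted p = 0.203).

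Of 13 tested genes of TGF-beta ligands, receptors and SMADs 11 fell and none rose, and 4 fell after median-ratio scaling. With the length trend removed 1 of the 13 fell. For both lists in this paragraph the share over all tested genes was 43.5% lower as deposited and 14.2% after median-ratio scaling. It was 11.5% lower with the length trend removed. *Tgfbr2*, the receptor subunit that binds the ligand, went from 8.18 ± 1.16 to 0.750 ± 0.488 FPKM (n = 3 per group; log2 change -2.42, limma adjusted p = 0.00122), and was at -1.91 after median-ratio scaling. *Tgfb1*, the gene of the main ligand, had a log2 fold change of -0.93 (limma adjusted p = 0.0264) but one of -0.21 after median-ratio scaling (limma adjusted p = 0.643). *Ski* and *Smad2* were at -1.50 and -1.35. After median-ratio scaling *Ski* was still called (-1.10) and *Smad2* was not (-0.70, limma adjusted p = 0.0529). Of 12 tested genes of YAP and TEAD factors and their targets other than *Ccn2*, 10 fell, and 3 after median-ratio scaling. With the length trend removed 2 of the 12 fell. *Axl*, a receptor kinase, had a log2 fold change of -2.40, *Fstl1* one of -1.67 and *Yap1* one of -1.50. After median-ratio scaling *Axl* and *Fstl1* were still called and *Yap1* was not (-0.84, limma adjusted p = 0.0936).

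Among the remodelling genes the protease *Mmp14* and the inhibitor *Timp2* fell, and *Timp1* did not pass. *Mmp14* (chromosome 14, positions 54431612 to 54445364) measured 21.3, 13.7 and 19.9 FPKM across the vehicle livers and 3.83, 8.96 and 3.40 FPKM across the treated ones. The highest treated library, ONX-0914 3, stayed below the lowest vehicle library. Its log2 fold change was -1.67 (limma: SE 0.35, adjusted p = 0.00629) and -0.97 after median-ratio scaling (limma adjusted p = 0.0356).

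*Timp2* (chromosome 11, positions 118301069 to 118355740) measured 19.7, 18.2 and 23.1 FPKM across the vehicle livers and 8.6, 8.35 and 5.50 FPKM across the treated ones. All treated libraries were below vehicle. The log2 fold change of -1.34 (limma: SE 0.25, adjusted p = 0.00427) was lost as a call after median-ratio scaling (-0.61, limma adjusted p = 0.0821) and once the length trend was taken out (-0.50, limma adjusted p = 0.139).

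*Timp1* (chromosome X, positions 20870166 to 20874735) was near the floor of the measurement, at 2.19, 1.86 and 1.06 FPKM across the vehicle livers and 1.39, 0.50 and 0.84 FPKM across the treated ones. The groups overlapped, and ONX-0914 3 was the lowest library. Its log2 fold change was -0.50 (limma: SE 0.25, adjusted p = 0.127), -0.04 after median-ratio scaling (limma adjusted p = 0.915) and 0.32 after quantile normalization (limma adjusted p = 0.421), so its direction depended on the scaling.

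*Timp3*, which encodes a matrix-bound inhibitor, fell too: it measured 5.42, 5.76 and 7.23 FPKM across the vehicle livers, 0.10 FPKM in ONX-0914 1, 0.86 FPKM in ONX-0914 3, and was listed at 0 in ONX-0914 4. Its log2 fold change was -2.48 (limma adjusted p = 0.00122) and -2.11 after median-ratio scaling; the difference from *Timp2* was not tested. Of 8 tested metalloproteinase genes other than *Mmp14*, 5 fell and none rose, and 2 fell after median-ratio scaling. With the length trend removed 1 of the 8 fell. Among all tested genes 43.5% were lower as deposited, 14.2% when scaled and 11.5% with the length trend removed. *Mmp12*, a macrophage elastase, went from 17.6 ± 3.81 to 1.96 ± 0.866 FPKM (n = 3 per group; log2 change -2.67, limma adjusted p = 0.00131). *Mmp19* went from 25.9 ± 2.00 to 10.0 ± 3.88 FPKM (n = 3 each, -1.35) and was not called after median-ratio scaling (-0.60, limma adjusted p = 0.112). *Mmp2*, the gelatinase that MMP14 activates, had a log2 fold change of -1.27 and of -0.92 after median-ratio scaling. It was not called with the length trend removed (-0.51, limma adjusted p = 0.119). *Mmp9*, the other gelatinase, was at 0.05 (limma adjusted p = 0.934).

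Of 10 tested ADAM and ADAMTS genes 7 fell, among them the sheddases *Adam9* (-2.26), *Adam10* (-2.20) and *Adam17* (-1.29). After median-ratio scaling 2 fell, *Adam9* and *Adam10*. For each list in this paragraph the shares over all tested genes were 43.5% lower and 2.56% higher as deposited. They were 14.2% and 13.8% after that scaling, and 11.5% and 9.54% with the length trend removed. Among 5 plasminogen system genes 3 fell, including *Plau*, which encodes urokinase (-1.63), while *Plg*, the hepatocyte gene of plasminogen, was at 0.04 (limma adjusted p = 0.876). After median-ratio scaling *Plau* was the 1 that fell (-1.18), and *Plg* rose (0.84, limma adjusted p = 0.0307). The genes that modify and crosslink collagen had few calls: 2 of 11 fell, *Pcolce2* (-1.23) and *Plod1* (-1.15), and none rose, and after median-ratio scaling none fell and 2 rose. Of 13 tested matrix receptor genes 10 fell, with *Dag1* (dystroglycan) at -2.61, *Itga9* at -1.64 and *Sdc1* (syndecan 1) at -1.53. After median-ratio scaling 4 fell, *Dag1* and *Itga9* among them, and *Sdc1* was not called (-0.74, limma adjusted p = 0.14). *Sdc4*, of highest mean in the list, did not pass as deposited (-0.89, limma adjusted p = 0.0925). Of 7 tested basement membrane genes 5 fell, with *Nid1* at -1.71 and *Hspg2* at -1.06, and 2 fell after median-ratio scaling. Of 13 collagen genes 11 fell, and 5 after median-ratio scaling. With the length trend removed 2 of 10 ADAM and ADAMTS genes fell, and 2 of 13 matrix receptor genes. In that fit 1 of 7 basement membrane and 2 of 13 collagen genes fell, and *Hspg2* was not called (-0.37, limma adjusted p = 0.183). Of the plasminogen genes 1 of 5 then fell and 1 rose, and of the crosslinking genes none fell and 2 rose. *Col18a1*, the collagen gene of highest mean, was at -0.81 as deposited and at -0.02 after median-ratio scaling.

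**Figure D3:**
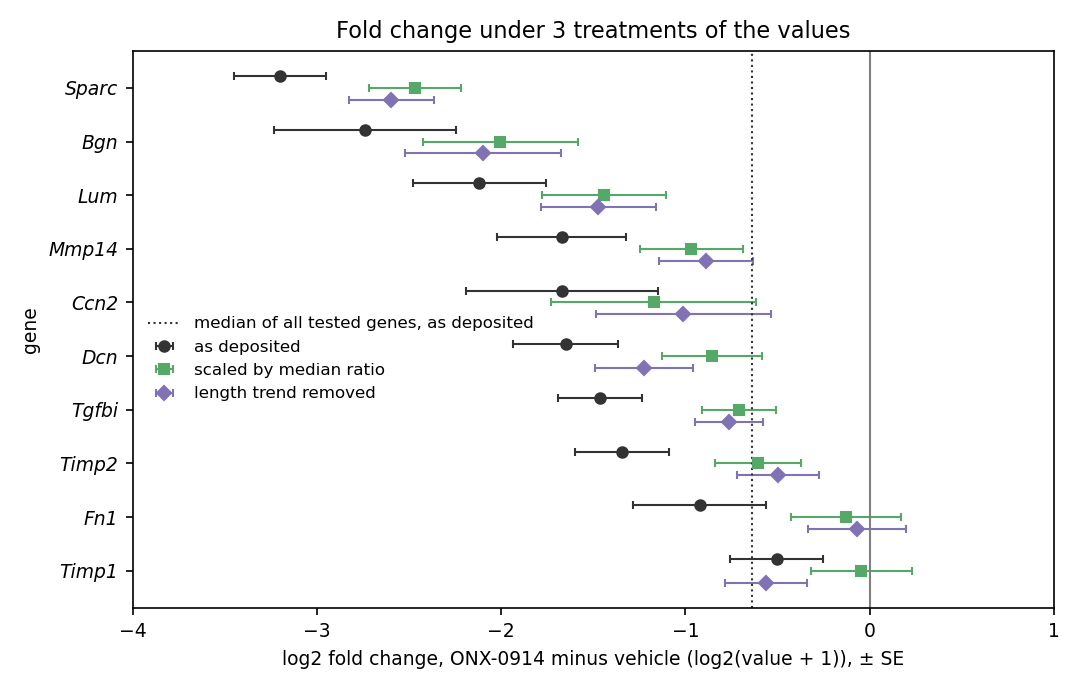
Log2 fold change of each gene, ONX-0914 minus vehicle, with its standard error, for values as deposited, after median-ratio scaling and with the length trend removed; the dotted line marks the median of all tested genes as deposited. *Sparc*, *Bgn* and *Lum* are the 3 lowest in each, and *Fn1* lies near 0 in the latter 2.

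The ratio of 2 genes within a library does not depend on that library's scaling, apart from 0.1 FPKM added to each value, and 10 such ratios were compared. It can depend on transcript length, by which treated libraries differed, and no ratio was taken with the length trend removed. With 3 libraries against 3 an exact two-sided permutation test cannot go below p = 0.1, and 4 ratios reached that value (exact permutation p = 0.25 after Benjamini-Hochberg adjustment). The ratio of *Dcn* to *Sparc* was 4.95, 4.07 and 3.89 across vehicle livers and 13.999, 16.98 and 12.76 across treated ones, a 3.38-fold higher ratio with treatment. *Dcn* thus kept more of its level than *Sparc* in every treated library. The ratio of *Tgfbi* to *Sparc* ran 0.541, 0.598 and 0.529 across vehicle livers and 1.65, 2.26 and 2.27 across treated ones, 3.68-fold higher. The ratio of *Fn1* to *Sparc* ran 2.94, 3.20 and 2.57 across vehicle livers and 7.31, 29.0 and 20.1 across treated ones, 5.61-fold higher.

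Within the proteoglycans the ratio of *Lum* to *Dcn* ran 0.0763, 0.0869 and 0.0642 across vehicle livers and 0.0521, 0.0485 and 0.0338 across treated ones. The treated libraries were all lower, by 1.71-fold on average. The other 6 ratios overlapped between the groups. The ratio of *Bgn* to *Dcn* was 0.209, 0.304 and 0.209 with vehicle, and 0.0510 and 0.0857 in ONX-0914 1 and 4 but 0.224 in ONX-0914 3. The ratio of *Timp2* to *Mmp14* ran 0.923, 1.33 and 1.16 across vehicle livers and 2.21, 0.933 and 1.6 across treated ones (exact permutation p = 0.4). ONX-0914 3 was within the vehicle range there, and in the ratio of *Timp1* to *Mmp14* as well.

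**Figure D4:**
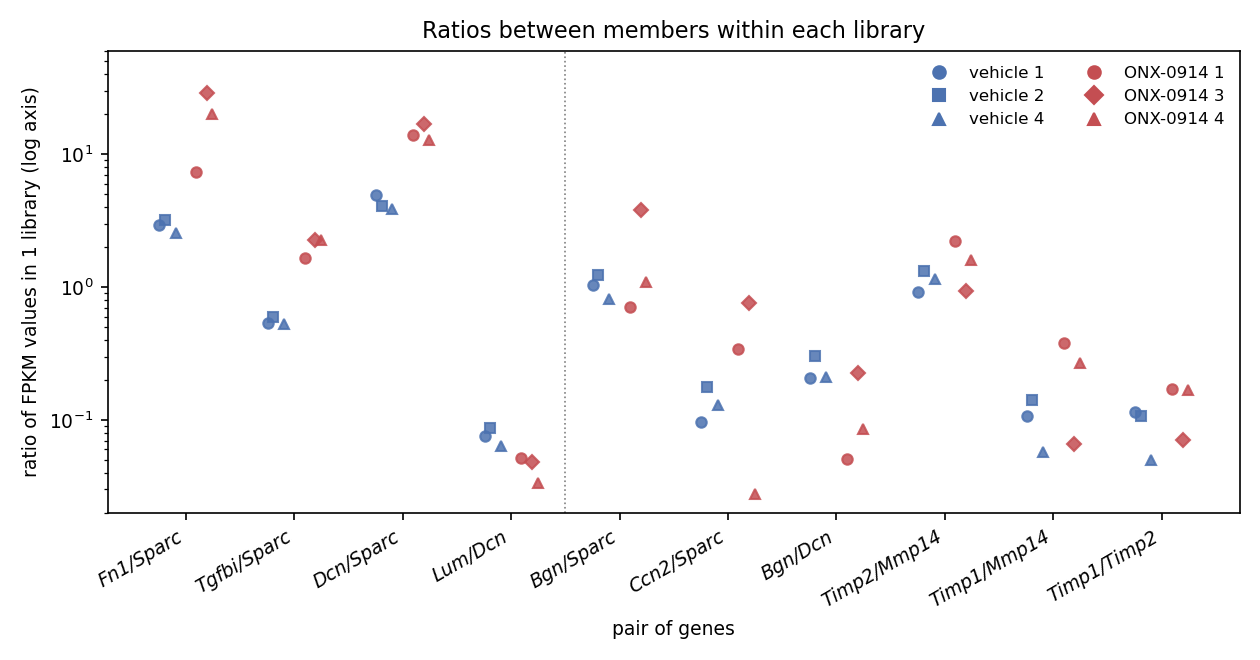
Ratio of 2 genes' FPKM values in each library, on a log axis; the 4 pairs left of the dotted line do not overlap between groups. The ratios of *Fn1*, *Tgfbi* and *Dcn* to *Sparc* are higher in all 3 treated libraries, and that of *Lum* to *Dcn* is lower.

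Promoter sequences from RefSeq (GRCm38.p6) were found for 6 of the 10 genes, *Sparc*, *Bgn*, *Timp1*, *Timp2*, *Mmp14* and *Tgfbi*. Those of *Bgn* and *Mmp14*, which fell, and of *Timp1*, which did not pass, are shown because they hold no annotated exon. Each is the 250 bases before the start, 5′ to 3′ on the gene's strand, which is the plus strand for these 3. They are chrX:73483351-73483600, chr14:54431348-54431597 and chrX:20869916-20870165. Capitals mark matches, on either strand, to GGAATG (the TEAD core), TGANTCA (AP-1), CAGAC (a SMAD element), GGGCGG (the GC box) or TATAAA (the TATA box).
Bgn: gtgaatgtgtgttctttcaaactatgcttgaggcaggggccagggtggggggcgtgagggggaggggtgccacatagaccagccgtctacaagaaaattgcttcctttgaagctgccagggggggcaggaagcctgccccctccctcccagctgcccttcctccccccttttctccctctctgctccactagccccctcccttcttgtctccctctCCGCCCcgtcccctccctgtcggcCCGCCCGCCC
Mmp14: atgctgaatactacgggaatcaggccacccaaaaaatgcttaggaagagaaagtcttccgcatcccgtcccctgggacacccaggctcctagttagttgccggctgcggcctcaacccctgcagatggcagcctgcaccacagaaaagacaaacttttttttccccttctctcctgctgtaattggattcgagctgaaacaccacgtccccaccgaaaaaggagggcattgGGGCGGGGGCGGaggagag
Timp1: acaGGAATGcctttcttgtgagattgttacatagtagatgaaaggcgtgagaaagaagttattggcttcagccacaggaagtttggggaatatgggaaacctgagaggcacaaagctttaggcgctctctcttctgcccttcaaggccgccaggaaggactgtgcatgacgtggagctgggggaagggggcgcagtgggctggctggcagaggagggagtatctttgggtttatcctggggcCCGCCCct
The GC box letters were in 5 of the 6 promoters, *Sparc* being without, and in 32.7% of 32851 promoters of the same length. CAGAC was in 2 of the 6 (*Sparc* and *Tgfbi*) and in 42.2% of all. GGAATG was in 1, that of *Timp1*, and in 12.6% of all. TGANTCA and TATAAA were in none of the 6 and in 6.75% and 12.4% of all. These matches are a description of letters and were given no test.

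Marker lists of the cell types of the liver moved differently: most endothelial, macrophage and stellate cell markers fell as deposited, beside 43.5% of all tested genes. Of the tested portal fibroblast and myofibroblast markers 1 of 3 fell in each list, and of the hepatocyte markers 2 of 15. After median-ratio scaling 14.2% of all tested genes were lower, and with the length trend removed 11.5%. In bulk tissue fewer cells of a type and less RNA per cell cannot be told apart. The 24 endothelial markers summed to between 356 and 357 FPKM in vehicle libraries and to 95.4, 93.4 and 54.4 FPKM in the treated ones. All 23 that were tested fell, and 19 did so after median-ratio scaling and 19 with the length trend removed. *Pecam1*, an endothelial adhesion gene, went from 10.3 ± 1.20 to 0.787 ± 0.497 FPKM (n = 3 per group; log2 change -2.69).

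The 12 stellate cell markers summed to between 125 and 140 FPKM with vehicle and to 87.0, 60.2 and 38.4 FPKM with ONX-0914. Of these 8 fell and none rose, and 5 fell after median-ratio scaling and 3 with the length trend removed. *Reln* had a log2 fold change of -1.77 and *Cygb* one of -1.86, whereas *Des*, *Hand2*, *Tcf21* and *Rgs5* did not pass. After median-ratio scaling *Reln* was still called (-1.32) and *Cygb* was not (-1.30, limma adjusted p = 0.0752). *Ngfr* was listed at 0 in ONX-0914 1. *Colec11*, the most abundant of the list, was at -1.10 (-0.32 after median-ratio scaling).

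Of 7 portal fibroblast markers 3 were tested and 1 fell, *Cd34*, which endothelial cells also express (-1.76). The list summed to between 9.66 and 10.5 FPKM with vehicle and between 2.86 and 5.59 FPKM with ONX-0914, and *Thy1*, *Gli1* and *Clec3b* were listed at 0 in ONX-0914 4. Of 6 myofibroblast and smooth muscle markers 3 were tested and 1 fell, *Acta2* (-1.17), while *Tagln* was at -0.63 (limma adjusted p = 0.224). After median-ratio scaling none of the 3 was called, and *Acta2* was at -0.64 (limma adjusted p = 0.0827). Their sum was 44.2 to 55.7 FPKM with vehicle and 14.9 to 45.0 FPKM with ONX-0914. Of 14 macrophage markers 11 fell, and 5 after median-ratio scaling and 9 with the length trend removed. Their sum was 1664 to 2459 FPKM with vehicle and 810 to 1149 FPKM with ONX-0914. The 6 mesothelial markers summed to at most 1.51 FPKM and none was tested. Of 15 hepatocyte markers 3 rose and 2 fell, and after median-ratio scaling 7 rose and none fell. Of 6 tested cholangiocyte markers 2 fell and 1 rose, and after median-ratio scaling none fell and 2 rose. Beside these rises, 2.56% of all tested genes were higher as deposited and 13.8% after median-ratio scaling. Of 5 red blood cell genes none was called at either scaling; their sum ran from 169 to 625 FPKM in vehicle and from 308 to 437 FPKM in treated libraries. The part of these markers in the falls of the matrix genes was not tested.

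**Figure D5:**
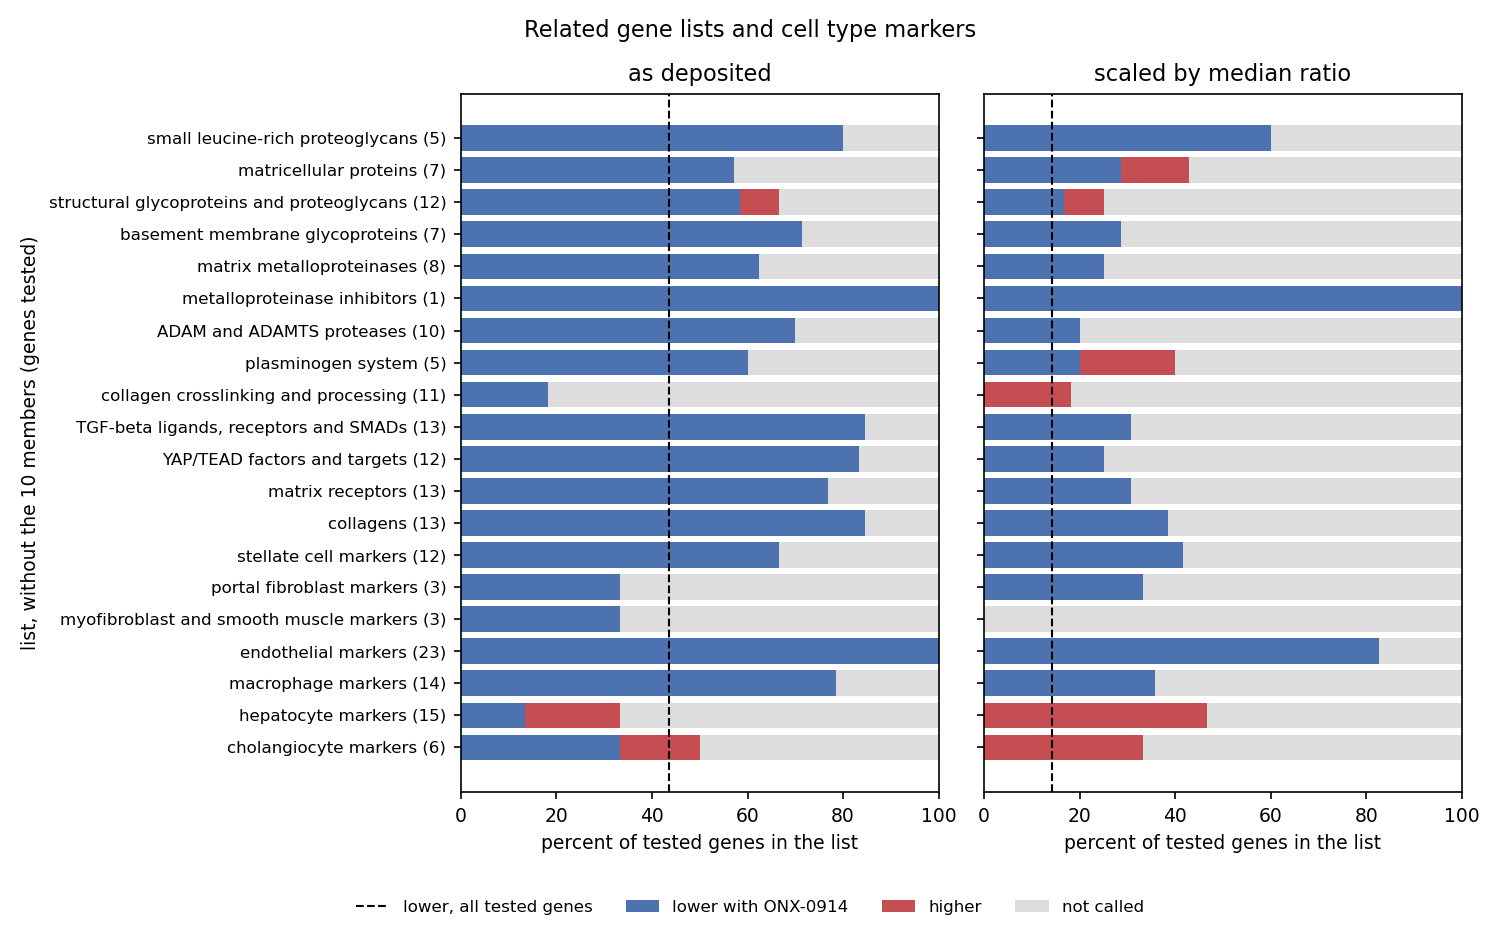
Share of tested genes in each related list that was lower, higher or not called with ONX-0914, without the 10 genes described here; numbers of tested genes stand in brackets and the dashed line is the share lower among all tested genes. Endothelial markers are lower throughout as deposited, and the crosslinking list has 2 of 11 lower.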

How the data were processed

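Per the labels' protocols, libraries were made from the enriched mRNA of TRIzol-extracted liver RNA. Tools listed in the submitters' processing notes, without their roles, are HISAT2 2.0.1, featureCounts 1.6.0, cutadapt 1.11, edgeR and FastQC 0.11.5, with GRCm38 and mm10 as builds. FPKM values, which the authors deposited with 2 decimals, were recognised as such from their range. Annotation, strand use and scaling are not given in the sources used here. Absolute depth is unknown, and relative depth came from ratios of low values.

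Genes above 1 FPKM in at least 3 libraries (10743, all 10 members among them) were tested on log2(FPKM + 1), which understates changes of low genes, with limma 3.58.1 in R 4.3.3 (variance trend, no block, Benjamini-Hochberg adjustment, called at adjusted p under 0.05). Median ratios were taken over tested genes above 0 in every library. The length trend was a lowess (span 0.3) over transcript length (GENCODE M21, longest coding form), which 98.2% of tested genes had. Its removal also took out each library's overall shift from the vehicle mean. Fits with ONX-0914 3 as the only treated library assume that it varies like the vehicle libraries. Members and lists were chosen with earlier results of these data known. A rule picked from each list up to 3 called genes of largest change without overlap and the 2 of highest mean. Only some of these are named here, so the named genes do not stand for their list. Other list genes were named after their values were seen. Simulated data had 10743 genes, with 50 changed at each size. There the fit recovered 2%, 26%, 84% and 96% of falls of 0.5, 1, 2 and 3 on the log2 scale and made 7 false calls. In the deposited values 43.5% of tested genes were called lower, so these rates need not hold for them.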

Additional observations from a re-analysis of the deposited data

How the results depend on the processing

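The count of 8 members lower was 5 in ONX-0914 3 alone against vehicle after median-ratio scaling, an alternative added after seeing the data, and between 6 and 9 in all others; none was higher in any. Absolute depth limits *Timp1* and *Ccn2*, whose values are low. The ratio of *Bgn* to *Sparc* (log2 difference 0.50) was -0.20 without ONX-0914 3, and that of *Ccn2* to *Sparc* (0.57) was -0.42 without it; without each replicate in turn they ranged from -0.20 to 1.01 and from -0.42 to 1.97. The other 8 ratios kept their direction. *Fn1* reversed to 0.45 in ONX-0914 3 alone after median-ratio scaling, and *Timp1* to 0.32 quantile normalized and 0.21 after median-ratio scaling without ONX-0914 3; the cause was not tested. *Fn1* passed scaled to equal sums (-1.08, limma adjusted p = 0.0399).

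Over all genes 4673 were lower and 275 higher. Removing the length trend, and the overall shift with it, gave 1231 and 1025, median-ratio scaling 1528 and 1481, and quantile normalization 1334 and 1118. Asking also for a change of 1 or more on the log2 scale gave 3062 and 110. In ONX-0914 3 alone 2992 were lower, and with equal sums 171 were higher. Among added settings they were 2007 and 1036 with median ratios over genes above 1 in every library, 2806 and 2829 after median-ratio scaling without ONX-0914 3, and 1152 and 963 scaled with ONX-0914 3 alone. Leaving out each replicate gave 2590 to 6514 lower and 92 to 740 higher. The highest counts, 6514 and 740, were those without ONX-0914 3. Both groups share only the numbers 1 and 4, which no label ties to an animal or day. Deviations of same-numbered libraries correlated at 0.00 and 0.13. With a replicate block over those 4 libraries 9 members, all but *Timp1*, were lower (*Bgn* at -3.29 and *Sparc* at -3.25), and 5980 genes were lower and 610 higher.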
